A study of Mus musculus with 6 samples.

Results

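The T-box factors Tbx2, Tbx3, Tbx4, Tbx5, Tbx15 and Tbx18, the homeobox factor Pitx1 and the zinc finger factors Osr1 and Osr2 were followed in mouse embryonic fibroblasts (MEFs) with and without Lasp1. Members were taken by gene symbol from the probe annotation, which gave 18 probes for all 9 genes, of 45281 probes and 19057 named genes on the array. Total RNA of cultures on the C57Bl/6NCr strain was hybridised to Illumina bead arrays, with 3 arrays of Lasp1-/- cells (Lasp1 knock out) and 3 of Lasp1+/+ cells (wild type). LASP1 is an actin-binding protein of focal adhesions, and the series title places its loss in the setting of cell migration and tumour formation. The labels give neither the allele, the embryonic stage, the part of the embryo, nor whether arrays came from separate embryos or cultures, so p-values measure the spread between these arrays, which may be technical.

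T-box proteins bind DNA through a shared domain and act as activators or repressors of transcription. In the embryo Tbx5 marks the forelimb field, and Pitx1 and Tbx4 mark the hindlimb field. Tbx2 and Tbx3 are repressors expressed at the limb bud margins, Tbx15 and Tbx18 pattern limb and trunk mesenchyme, and Osr1 and Osr2, relatives of the Drosophila gene odd-skipped, mark joints and the connective tissue around muscle. Cultured fibroblasts are known to keep part of the positional code of the site they came from.

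Of the 9 genes, Osr2, Tbx4 and Tbx15 fell in Lasp1-/- fibroblasts, Tbx3 and Tbx2 rose, and Osr1, Tbx5, Tbx18 and Pitx1 did not pass the test. The largest changes were in Osr2, at 42.7% of the wild-type intensity, and Tbx4, at 44.0%. A gene was represented by its brightest probe and tested with limma on log2 intensity, with p-values adjusted over all genes and 0.05 as the threshold. By that test 6.29% of all genes were called, 2.20% higher and 4.09% lower in Lasp1-/- cells, against 5 of the 9 members (55.6%). Over all genes that made 419 higher and 780 lower, a split that quantile normalization moved to 1015 and 1086. Among genes brighter than the median of all probe means, where 7 of the 9 members lie, the share called was 9.96%. The 3 Lasp1-/- arrays lay wholly above or below the 3 Lasp1+/+ arrays in 5 of the 9 members and in 21.3% of all genes. The members were chosen with earlier results of these arrays known, so their count is a description. In RNA from whole cultures, fewer cells of a type and less RNA per cell cannot be told apart.

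The arrays resembled each other, with a median intensity of 1000 in each by the authors' scaling and Spearman correlations of 0.904 to 0.927 between genotypes. The upper quartile was highest in Lasp1-/- replicate 1 (2283) and Lasp1+/+ replicate 2 (2330), and between 2018 and 2112 in the other arrays. Lasp1 read 51904, 51019 and 49770 in Lasp1-/- cells at its brightest probe, against 135295, 148208 and 148809 in Lasp1+/+ cells, so the labels' direction held in every array. Its log2 difference was -1.50 ± 0.07 (SE, limma adjusted p = 1.18e-05), and the exact two-sided permutation p was 0.1, the smallest that 3 against 3 allow. At this probe 35.3% of the wild-type intensity remained. A dimmer probe (ILMN_2879745) averaged 3097 and 12502 in Lasp1-/- and Lasp1+/+ cells, or 4.10-fold (limma adjusted p = 0.000180 over all probes). The third (ILMN_2596851), near the array median, averaged 923 and 1107 and was not called (limma adjusted p = 0.121). Whether these probes match the part of Lasp1 that was disrupted was not analysed here.

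**Figure D1:**
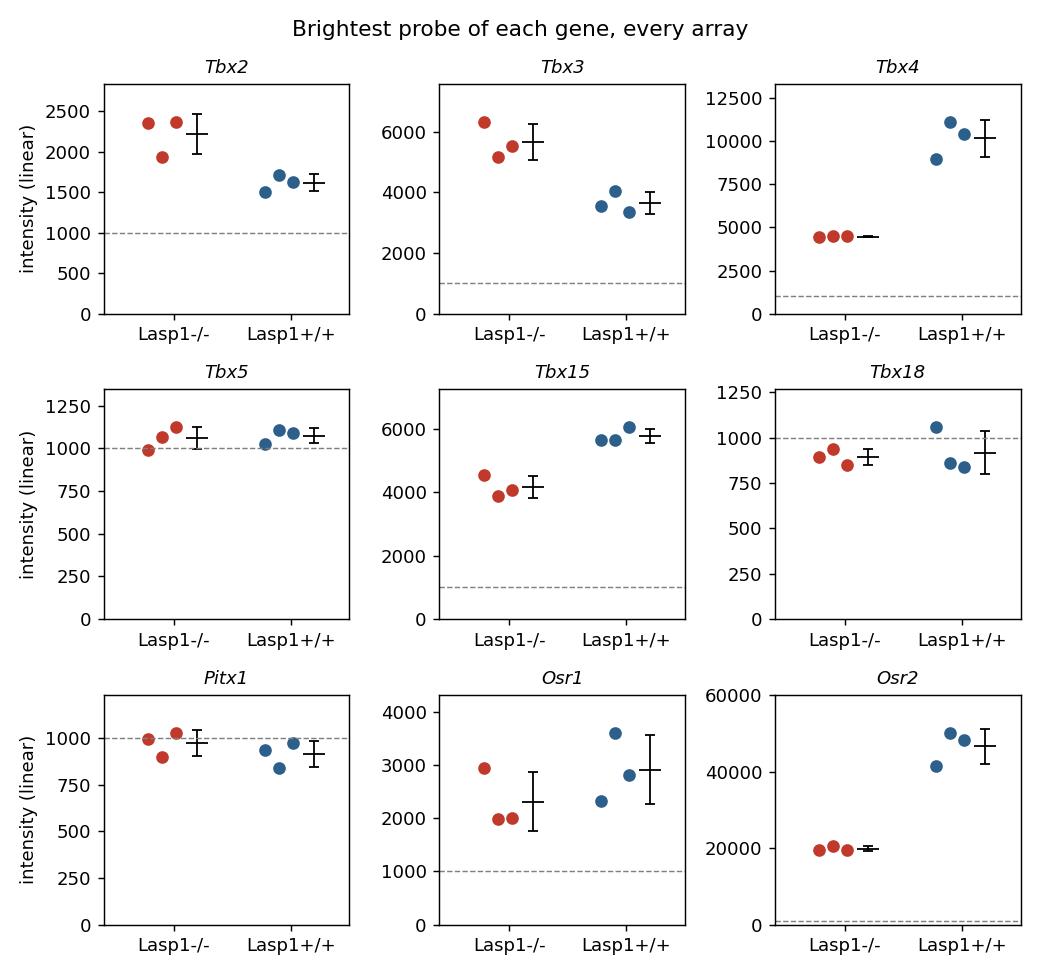
Intensity (linear scale) at the brightest probe of each gene in the 3 Lasp1-/- arrays (left, red) and the 3 Lasp1+/+ arrays (right, blue), with replicates 1 to 3 in order as points, mean and SD as bars, and the array median of 1000 as a dashed line. The genotypes are separate for Tbx2, Tbx3, Tbx4, Tbx15 and Osr2 and overlap for Tbx5, Tbx18, Pitx1 and Osr1, of which the first 3 lie close to the array median.

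Tbx4, a hindlimb factor that is also needed in lung mesenchyme, read 4447, 4473 and 4483 in the Lasp1-/- arrays, against 8961, 11109 and 10393 in the Lasp1+/+ arrays. The Lasp1-/- values were nearly identical and all lay below the lowest Lasp1+/+ value. The means were 4468 ± 18.6 in Lasp1-/- cells and 10154 ± 1094 in Lasp1+/+ cells (SD, n = 3 each), a log2 difference of -1.18 ± 0.09 (SE, limma adjusted p = 0.000133), or 2.26-fold. A dimmer Tbx4 probe (ILMN_1244228) read 1192, 1103 and 1105 in Lasp1-/- cells, against 1631, 1838 and 1608 in Lasp1+/+ cells. It fell as well, by 0.58 on the log2 scale (limma adjusted p = 0.00347 over all probes, of which 3.90% were called). The Lasp1-/- readings of this probe approach the array median. Why its fold is smaller was not tested.

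Pitx1, which acts upstream of Tbx4 in the hindlimb, read 998, 899 and 1028 in Lasp1-/- cells and 935, 839 and 974 in Lasp1+/+ cells. No background or detection measure was at hand for these arrays. All 6 Pitx1 values sit around the array median of 1000, and the groups overlap. The log2 difference was 0.09 with a 95% interval of -0.11 to 0.29 (limma adjusted p = 0.697). Tbx5, the forelimb factor, was as dim, at 993, 1068 and 1123 in Lasp1-/- cells and 1024, 1107 and 1090 in Lasp1+/+ cells. Its log2 difference was -0.02 (95% interval -0.19 to 0.16, limma adjusted p = 0.952), and its other probe averaged 975 and 940 in Lasp1-/- and Lasp1+/+ cells. No change in either gene was detected at this signal, where folds are understated, and the arrays do not show whether they were expressed. The fall of the hindlimb factor Tbx4 therefore stands without a readable value for the other limb-type factors.

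Promoter sequence was held in the RefSeq table (GRCm38.p6) for 2 of the 9 members, Tbx4, which fell, and Tbx18, which was near the array median. The 250 bases before each annotated start are shown 5′ to 3′ to set a called and an uncalled T-box gene side by side, with CpG dinucleotides, the sites of DNA methylation, in capitals. The Tbx4 window is chr11:85896515-85896764 on the plus strand, and the Tbx18 window is chr9:87731261-87731510 on the minus strand.
Tbx4: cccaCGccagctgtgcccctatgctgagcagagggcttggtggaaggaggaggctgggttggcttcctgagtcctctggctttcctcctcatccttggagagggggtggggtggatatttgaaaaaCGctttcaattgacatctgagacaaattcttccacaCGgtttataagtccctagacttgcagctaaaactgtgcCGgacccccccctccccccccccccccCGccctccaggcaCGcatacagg
Tbx18: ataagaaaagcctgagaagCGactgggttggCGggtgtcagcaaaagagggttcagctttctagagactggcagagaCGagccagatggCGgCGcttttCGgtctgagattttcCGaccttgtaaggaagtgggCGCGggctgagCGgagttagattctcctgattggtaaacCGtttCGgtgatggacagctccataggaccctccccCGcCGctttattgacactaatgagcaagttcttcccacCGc
The Tbx4 window holds 6 CpG at 58.4% G and C, and the Tbx18 window 15 at 54.0%, against a median of 6 over 32851 windows of the same length. A run of 15 C lies near the Tbx4 start. The T-box core GGTGTGA was searched on both strands and is in neither window, and it is in 3.33% of all windows. The Pitx core TAATCC, also searched on both strands, is in neither window and in 6.25% of all windows. These counts describe the letters of the windows, and neither methylation nor binding was measured.

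Tbx3, a repressor of transcription needed in limb, mammary gland and heart development, read 6325, 5169 and 5519 in Lasp1-/- cells, against 3550, 4037 and 3344 in Lasp1+/+ cells. Every Lasp1-/- array was above every Lasp1+/+ array. The means were 5671 ± 593 and 3644 ± 356 in Lasp1-/- and Lasp1+/+ cells (SD, n = 3 each), a log2 difference of 0.64 ± 0.10 (SE, limma adjusted p = 0.00638), or 1.56-fold. The other 3 Tbx3 probes were dimmer, with log2 differences of 0.46, 0.37 and 0.10,, short of the threshold (limma adjusted p over all probes 0.0721, 0.369 and 0.651). One of them, made from a cDNA clone (ILMN_1228778), was higher in every Lasp1-/- array, at 1463 to 1881 against 1075 to 1380 in Lasp1+/+ cells. With the mean of all 4 probes in place of the brightest, Tbx3 did not pass (log2 difference 0.39, limma adjusted p = 0.0961).

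Tbx2, the closest relative of Tbx3 and like it a repressor, read 2356, 1928 and 2366 in Lasp1-/- cells, against 1505, 1716 and 1627 in Lasp1+/+ cells. The groups were separate by a small margin, between 1928 and 1716. The means were 2217 ± 250 and 1616 ± 106 in Lasp1-/- and Lasp1+/+ cells (SD, n = 3 each), a log2 difference of 0.45 ± 0.10 (SE, limma adjusted p = 0.0273). The call was lost without Lasp1-/- replicate 1 (limma adjusted p = 0.0755), Lasp1-/- replicate 3 (0.144), Lasp1+/+ replicate 1 (0.0510) or Lasp1+/+ replicate 3 (0.117), while the log2 difference stayed between 0.40 and 0.46. After background correction by normexp the difference grew to 0.68 without passing (limma adjusted p = 0.0914). The second probe, made from a cDNA clone, averaged 1063 and 974 in Lasp1-/- and Lasp1+/+ cells, close to 1000, and was not called (limma adjusted p = 0.586).

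**Figure D2:**
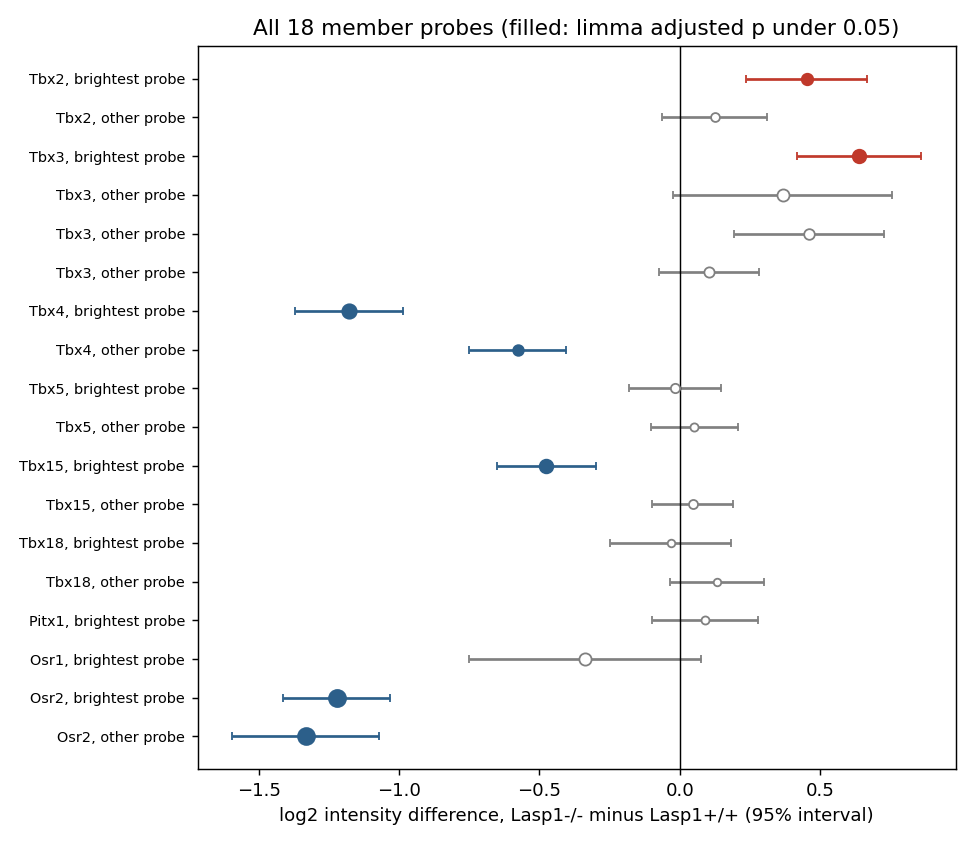
Log2 intensity difference, Lasp1-/- minus Lasp1+/+, with its 95% interval for each of the 18 member probes, from the limma fit over all probes, with larger symbols for brighter probes. Filled symbols passed an adjusted p of 0.05, in red for higher and blue for lower. Both probes of Tbx4 and of Osr2 fell, while for Tbx2, Tbx3 and Tbx15 the brightest probe alone passed.

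Tbx2 and Tbx4 are adjacent on chromosome 11, and Tbx3 and Tbx5 on chromosome 5, an arrangement that arose when an ancestral T-box pair was duplicated. In the chromosome 11 pair Tbx2 rose and Tbx4 fell, and in the chromosome 5 pair Tbx3 rose and Tbx5 was near the array median. The 2 nearest measured genes on each side of every member in RefSeq order gave 28 neighbours, of which limma called 0 after adjustment, with 0 higher and 4 lower at an unadjusted p under 0.05. Their log2 differences ran from -0.49 (Rbm19) to 0.32 (Wars2), with a median of -0.05 against -0.02 for all genes. Over the processing alternatives between 0 and 4 of the 28 were called lower and at most 1 higher. With 28 genes, 0 calls cannot be told from the 6.29% called over all genes. Around Tbx2 and Tbx4, Ppm1d, a phosphatase that acts on p53, differed by 0.02 and Bcas3 by -0.04, and the helicase gene Brip1 by -0.25 (limma adjusted p = 0.0669). Lasp1 is also on chromosome 11, with 149 measured genes between it and Tbx4. Of these 8 rose and 5 fell (8.72%, against 6.29% of all genes).

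Tbx15, a factor of mesenchyme that shapes the skeleton and dorsal skin, read 4559, 3881 and 4070 in Lasp1-/- cells, against 5647, 5663 and 6049 in Lasp1+/+ cells. All Lasp1-/- arrays were below all Lasp1+/+ arrays. The means were 4170 ± 350 and 5786 ± 227 in Lasp1-/- and Lasp1+/+ cells (SD, n = 3 each), a log2 difference of -0.48 ± 0.08 (SE, limma adjusted p = 0.00985). Without Lasp1-/- replicate 3 or Lasp1+/+ replicate 3 the call was lost (limma adjusted p = 0.0641 and 0.0656), at differences of -0.46 and -0.44. It was also lost after normexp correction (-0.55, limma adjusted p = 0.101). The second Tbx15 probe read 1028 to 1089 in Lasp1-/- cells and 989 to 1043 in Lasp1+/+ cells, at the array median, and averaging it in gave -0.21, no longer called (limma adjusted p = 0.0614).

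Tbx18, whose protein can pair with TBX15 and which marks the epicardium and the ureter mesenchyme, read 895, 938 and 848 in Lasp1-/- cells and 1057, 859 and 839 in Lasp1+/+ cells. Apart from Lasp1+/+ replicate 1 these values lie below the array median of 1000, as do all 6 of its other probe, with means of 942 in Lasp1-/- cells and 860 in Lasp1+/+ cells. The log2 difference was -0.03 with a 95% interval of -0.26 to 0.19 (limma adjusted p = 0.924). No level of Tbx18 can be read from these arrays.

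Osr2, which is needed for closure of the palate and acts with Osr1 in joint formation, was bright at both of its probes. The brightest read 19533, 20679 and 19481 in Lasp1-/- cells, against 41355, 50090 and 48261 in Lasp1+/+ cells. The highest Lasp1-/- reading was thus well below the lowest Lasp1+/+ reading. The means were 19898 ± 677 and 46569 ± 4607 in Lasp1-/- and Lasp1+/+ cells (SD, n = 3 each), a log2 difference of -1.22 ± 0.09 (SE, limma adjusted p = 9.48e-05), or 2.33-fold. The other probe (ILMN_2781784) read 18071, 16727 and 16081 in Lasp1-/- cells, against 35243, 48867 and 45083 in Lasp1+/+ cells. Its log2 difference was -1.33 ± 0.12 (SE, limma adjusted p = 0.000366 over all probes). Both probes lie far above the array median, and the fold of the brightest moved little with normexp correction, to 2.38.

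Osr1, the relative of Osr2 that also marks intermediate mesoderm and muscle connective tissue progenitors, read 2945, 1975 and 1997 in Lasp1-/- cells and 2323, 3599 and 2804 in Lasp1+/+ cells. The groups overlap, and each group has its highest value in the array with its highest upper quartile, Lasp1-/- replicate 1 and Lasp1+/+ replicate 2. The log2 difference was -0.34 ± 0.19 (SE, limma adjusted p = 0.400), with a 95% interval of -0.76 to 0.08, the widest of the 9 members. It was -0.53 without Lasp1-/- replicate 1 (limma adjusted p = 0.108) and -0.17 without Lasp1+/+ replicate 2 (limma adjusted p = 0.704). Without both of those arrays it was -0.36 (limma adjusted p = 0.0617), an alternative chosen after the data had been seen. A fall of the size seen in Osr2 lies outside the interval of Osr1, and the difference between the 2 genes was not itself tested.

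**Figure D3:**
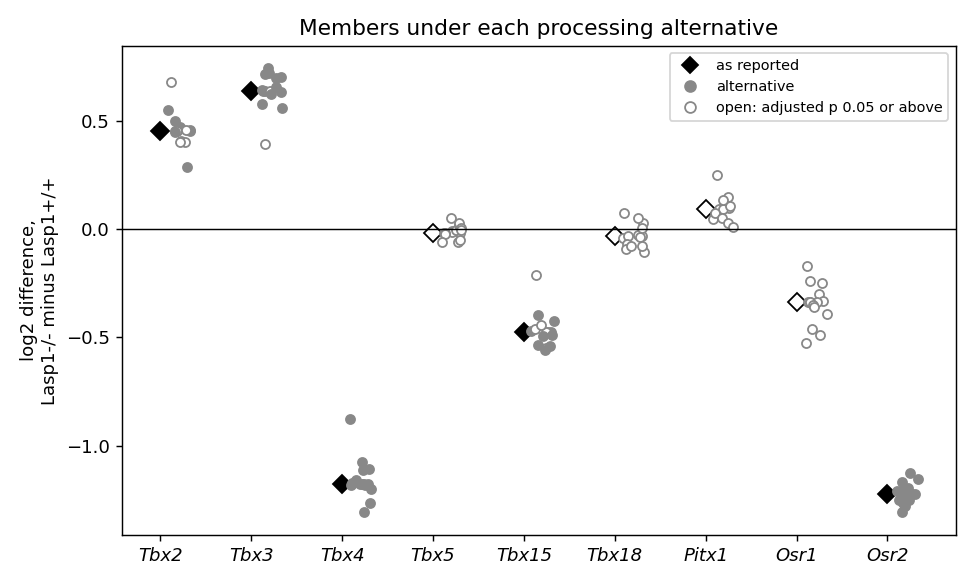
Log2 difference, Lasp1-/- minus Lasp1+/+, of each member as reported (black diamonds) and under each processing alternative (grey circles), with open symbols where the limma adjusted p was 0.05 or above. Tbx4 and Osr2 keep their fall in each alternative run, Tbx3 loses its call in 2, and Tbx2 and Tbx15 are open in several.

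Within a genotype some members deviated from their group mean in particular arrays. On the log2 scale Tbx3 lay 0.16 above its group mean in Lasp1-/- replicate 1 and 0.15 above it in Lasp1+/+ replicate 2. In those arrays Osr1, which was not called, lay 0.38 and 0.33 above its group means. The other called members lay there at 0.09 and 0.09 (Tbx2), -0.01 and 0.14 (Tbx4), 0.13 and -0.03 (Tbx15), and -0.03 and 0.11 (Osr2). Tbx4 and Osr2 spread more among Lasp1+/+ arrays, from -0.17 to 0.14 and from -0.17 to 0.11, than among Lasp1-/- arrays, from -0.01 to less than 0.01 and from -0.03 to 0.06, a contrast that was not tested. As a description over the 6 arrays and 11978 genes, the R-spondin receptor Lgr5 followed Tbx4 most closely (Pearson r = 0.9998), before the prostacyclin receptor Ptgir (0.9996). Tmem204 (0.9997) and Lgr5 (0.998) were closest to Osr2. The genes closest to Tbx3 were Cela1 (0.998) and Specc1 (0.996), those closest to Tbx2 were Urb1 (0.998) and Ltc4s (0.994), and those closest to Tbx15 were Top2a (0.997) and Rhbdd1 (0.997). With 2 genotypes of 3 arrays, these correlations mostly record that both genes differ between genotypes. Urb1 and Ltc4s, however, were higher by 0.22 and 0.28 without passing (limma adjusted p = 0.148 and 0.0771).

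Among the other T-box and Pitx genes, 13 were listed and 11 measured. Limma called 0 of them, against 6.29% of all genes, and 11 genes are too few to tell 0 from that share. At an unadjusted limma p under 0.05, 1 was higher (Tbx10, log2 difference 0.17). Without Lasp1+/+ replicate 2 the call count was 1. Only 4 of the 11 were above the median of probe means, Tbx1, Tbx6, Tbx22 and Mga. Tbx22 was as dim as Tbx5, with means of 1019 in Lasp1-/- cells and 1086 in Lasp1+/+ cells. For Tbx22 and the other 7 the arrays give no readable level. Tbx1, a factor of the pharyngeal arches, averaged 2253 and 2381 in Lasp1-/- and Lasp1+/+ cells (log2 difference -0.07, limma adjusted p = 0.858). Mga, a large protein with a T-box and a MYC-like domain, averaged 1706 and 1514 (0.19, limma adjusted p = 0.516).

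Genes of the limb field and of limb type act with or around Tbx4, Tbx5 and Pitx1. They gave 2 rises and 2 falls among 20 measured, with a median log2 difference of -0.02. That was 20% called, against 6.29% of all genes. The lists, like the members, were chosen with earlier results known, so their counts are a description. Fgf10, the growth factor that starts limb and lung buds and a known target of both Tbx5 and Tbx4, read 14573, 14567 and 14159 in Lasp1-/- cells, against 9098, 8480 and 10622 in Lasp1+/+ cells. It rose by 0.62 ± 0.09 (SE, limma adjusted p = 0.00397) while Tbx4 fell, with all 3 of its probes higher, and did not pass after normexp correction (limma adjusted p = 0.0564). Meis2, a homeobox gene of the proximal limb, rose by 0.46 (limma adjusted p = 0.00939, and 0.0525 without Lasp1+/+ replicate 3). Hoxc10, a hindlimb Hox gene, read 9658, 7860 and 7666 in Lasp1-/- cells, against 12384, 16919 and 13839 in Lasp1+/+ cells. Its log2 difference was -0.77 ± 0.13 (SE, limma adjusted p = 0.00830, and 0.0626 without Lasp1-/- replicate 3), and both of its probes fell. Irx5, of the early proximal limb, differed by -0.60 (limma adjusted p = 0.0203), a call lost without Lasp1-/- replicate 1, 2 or 3, with an adjusted p of up to 0.101.

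Genes of the limb axes and of bud outgrowth gave 2 rises and 5 falls among 31 measured, with a median of -0.06. The share called was 22.6%, against 6.29% of all genes. Msx1, a homeobox gene of distal limb mesenchyme, fell most (-2.62), followed by the digit genes Hoxd12 (-0.96) and Hoxd13 (-0.95), with limma adjusted p of at most 0.00186. Of the 2 Msx1 probes, both fell and 1 was called over all probes. Over the alternatives its log2 difference ran from -3.09 to -1.51. For Hoxd12, 1 of its 2 probes went that way. Grem1, a BMP antagonist that sustains bud outgrowth, read 8019, 5940 and 6918 in Lasp1-/- cells, against 3505, 3772 and 2921 in Lasp1+/+ cells, and rose by 1.03 ± 0.13 (SE, limma adjusted p = 0.00162). Dusp6, a phosphatase induced by FGF signalling, rose by 0.32 (limma adjusted p = 0.0395). That call held without Lasp1+/+ replicate 2 and was lost without any other array, with an adjusted p of up to 0.181.

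**Figure D4:**
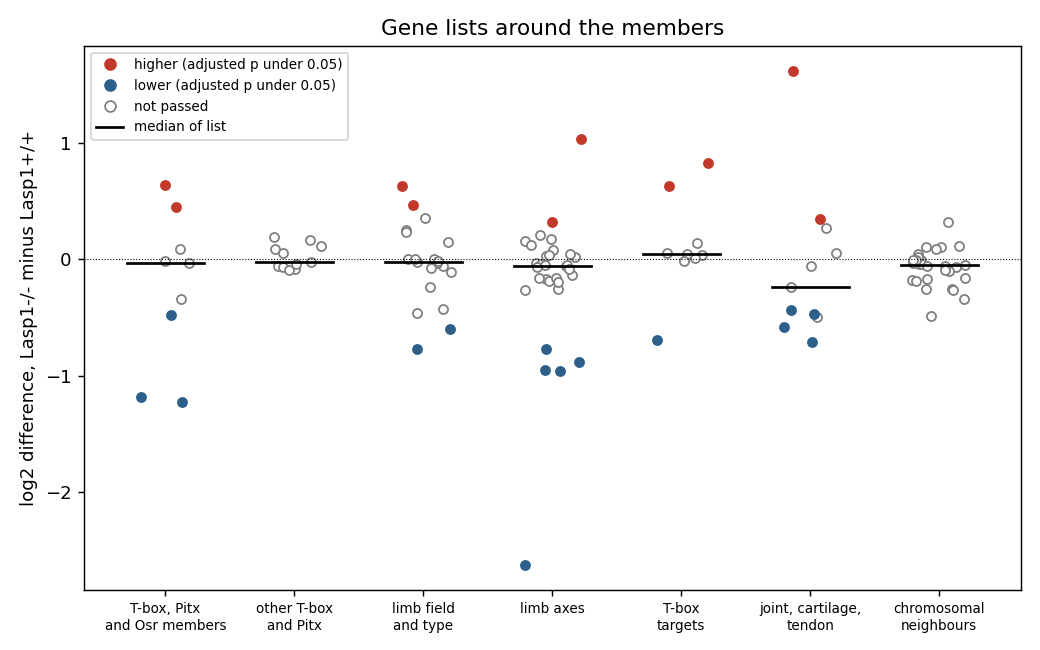
Log2 difference, Lasp1-/- minus Lasp1+/+, of each measured gene in the members and in 6 lists around them, with red for higher and blue for lower at a limma adjusted p under 0.05, open circles for genes that did not pass, and black lines for list medians. The other T-box and Pitx genes (11 measured) and the chromosomal neighbours (28) hold 0 calls. Both lists are too short to tell 0 from the 6.29% called over all genes. The list of joint, cartilage and tendon genes has the lowest median (-0.24).

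Among 9 measured genes known to be regulated by T-box factors, 2 rose and 1 fell (33.3%, against 6.29% of all genes), with a median of 0.04. Nppa, the atrial natriuretic peptide gene that TBX5 activates and TBX2 and TBX3 repress in the heart, read 2235, 1828 and 2129 in Lasp1-/- cells, against 1191, 1144 and 1142 in Lasp1+/+ cells. It rose by 0.83 ± 0.09 (SE, limma adjusted p = 0.000727), in the same arrays in which Tbx2 and Tbx3 were higher, and Fgf10 was the other rise. Ndrg1, a stress-response gene repressed by TBX2 in human breast cancer cells, averaged 7253 ± 813 and 11688 ± 734 in Lasp1-/- and Lasp1+/+ cells (SD, n = 3 each) and fell by 0.69 on the log2 scale (limma adjusted p = 0.00294). The cell cycle inhibitors that TBX2 and TBX3 repress did not pass, with log2 differences of 0.01 for Cdkn1a and 0.04 for Cdkn2a (limma adjusted p = 0.982 and 0.884). The gap junction gene Gja1, another repressed target, differed by 0.14 (limma adjusted p = 0.404).

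Joint, cartilage, tendon and connective tissue genes, near the roles of Osr1 and Osr2, gave 2 rises and 4 falls among 11 measured. The share called was 54.5%, against 6.29% of all genes, and the median was -0.24 against -0.02 for all genes. Sox5, a cofactor of Sox9 in cartilage, read 12920, 10116 and 11486 in Lasp1-/- cells, against 3356, 4124 and 3753 in Lasp1+/+ cells. It rose by 1.62 ± 0.11 (SE, limma adjusted p = 7.81e-05), with all 6 of its probes higher. Its relative Sox6 rose by 0.34 (limma adjusted p = 0.0463), at means of 1215 and 958 in Lasp1-/- and Lasp1+/+ cells, near the array median. Of its 5 probes, 3 went in that direction and 0 were called over all probes. The call of Sox6 held without Lasp1+/+ replicate 2 and was lost without any other array, with an adjusted p of up to 0.157. The tendon factors Mkx (-0.71, limma adjusted p = 0.00121) and Scx (-0.58, limma adjusted p = 0.0233) and the cartilage factor Sox9 (-0.47, limma adjusted p = 0.0170) fell with Osr2. Scx and Sox9 did not pass without Lasp1-/- replicate 2, Lasp1-/- replicate 3 or Lasp1+/+ replicate 3, with an adjusted p of up to 0.104 and 0.0973. Normexp correction also ended the calls of Scx, Sox9 and Sox6, and those of Meis2, Irx5 and Dusp6 above.

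Marker genes of the cultured cell type moved too. All 12 fibroblast markers were above the median of probe means, where 9.96% of genes were called. Of the 12, 6 fell and 0 rose (50%, against 6.29% of all genes). The list had a summed intensity of 815530 to 871012 in Lasp1-/- cells and 1000783 to 1161585 in Lasp1+/+ cells. Col1a2 (-0.84, limma adjusted p = 0.0171) and Lum (-0.80, limma adjusted p = 0.0128) led, and without Lasp1-/- replicate 3 or Lasp1+/+ replicate 3 neither passed, with an adjusted p of up to 0.0913 and 0.0837. Without Lasp1-/- replicate 2 Col1a2 did not pass either, and normexp correction ended both calls and that of Sox10. Of 6 epithelial markers (33.3% called), Krt14 (-2.59) and Krt8 (-0.71) fell, limma adjusted p at most 0.000671. The list summed to 8144 to 8354 in Lasp1-/- cells and 20052 to 25092 in Lasp1+/+ cells. Krt14 alone averaged 2565 and 15557 in Lasp1-/- and Lasp1+/+ cells, so most of the difference between these sums is Krt14. Krt18, the partner of Krt8, averaged 1570 and 1387 in Lasp1-/- and Lasp1+/+ cells, with the Lasp1-/- arrays all above the Lasp1+/+ arrays, and did not pass after adjustment (0.18, limma adjusted p = 0.247). Cdh1 averaged 1065 and 1037 (0.04, limma adjusted p = 0.896). The defining epithelial genes Epcam and Krt5 were below the array median in both genotypes, with means of 809 and 870 in Lasp1-/- cells and 868 and 913 in Lasp1+/+ cells. The mesothelial gene Upk3b fell by 0.94 on the log2 scale (limma adjusted p = 0.00127), 1 call among 2 measured markers (50%). That list summed to 9293 to 11266 in Lasp1-/- cells and 15744 to 19864 in Lasp1+/+ cells. Of 3 neural and neural crest markers (66.7% called), Nes rose (1.32) and Sox10 fell (-0.60), limma adjusted p at most 0.0423. The list summed to 7017 to 9104 in Lasp1-/- cells and 5737 to 7072 in Lasp1+/+ cells. Nes averaged 4598 and 1825 in Lasp1-/- and Lasp1+/+ cells, and Sox10 2362 and 3590, so the higher sum came from Nes. The Sox10 call was lost without Lasp1-/- replicate 2 or 3 or Lasp1+/+ replicate 2 or 3, with an adjusted p of up to 0.186. Limma called 0 of 4 endothelial, 0 of 4 blood and 0 of 3 muscle markers, against 2, 1 and 1 at an unadjusted p under 0.05. Lists of 3 or 4 genes are too short to tell 0 from the 6.29% called over all genes. The part of these shifts in the falls of Osr2, Tbx4 and Tbx15 was not tested.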

How the data were processed

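The authors' deposited values were probe intensities on a linear scale, and every array had a median of 1000 over 45281 probes, so each array had been scaled. The range was 593 to 557143, not background subtracted to 0, so folds of dim genes are understated. For the scanner, the software and the genome build, processing was not given in the sources used. Of the probes, 34885 had 1 gene symbol in the platform annotation, 18 had several and 10378 had none. A gene was represented by its probe with the highest mean, giving 19057 genes. Of these, 18992 were matched by Entrez identifier in the RefSeq gene table of GRCm38.p6, used for names and gene order only, and 0 symbols differed.

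Log2 intensities were modelled by genotype alone (R 4.3.3, limma 3.58.1, functions lmFit and eBayes, with 5.12 prior and 4 residual degrees of freedom), across all genes and, for single probes, over all probes. Differences are Lasp1-/- minus Lasp1+/+. P-values were two-sided and Benjamini-Hochberg adjusted at 0.05. Members, lists and tests were chosen with earlier results of these data known. All members were named, with up to 3 rises and 3 falls of each list, up to 2 of each marker list, and the 2 genes most correlated with each called member. Rbm19, Wars2, Ppm1d, Bcas3, Brip1, Tbx10, Tbx1, Mga, Cdkn1a, Cdkn2a, Gja1, Tbx6, Tbx22, Epcam, Krt5, Krt18 and Cdh1 were named after their values had been seen, to complete a count. On simulated data for this comparison, with 19057 genes, the test recovered 56.7% of simulated log2 shifts of 0.5, 92.5% of shifts of 1 and 100% of shifts of 2. Arrays give no counts, and their number limits precision. Same-numbered arrays did not deviate together (correlations of -0.41, -0.34 and 0.22), so numbers were not taken as pairs. Some differently numbered arrays did, Lasp1-/- replicate 1 with Lasp1+/+ replicate 2 (0.47) and Lasp1-/- replicate 2 with Lasp1+/+ replicate 1 (0.39). The other pairs lay between -0.16 and 0.01. The fit by genotype alone does not model such shared deviations, and their cause was not tested. Alternatives were quantile normalization, median centring, normexp background correction with an offset of 50, a filter on dim genes, eBayes with trend and robust estimation, array weights, the mean of all probes, a replicate block, and each array left out.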

Additional observations from a re-analysis of the deposited data

How the results depend on the processing

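Over 15 alternatives Tbx4 and Osr2 kept their fall and their call, with log2 differences of -1.31 to -0.88 and -1.31 to -1.12. Tbx3 kept its direction in each and lost its call with the mean of all probes (0.39) and the replicate block. The 2 rises among members became 1 with normexp correction, 1 with the mean of all probes, 0 with the replicate block, and 1 to 2 with each array left out. The 3 falls became 2, without Tbx15, with normexp, the mean of all probes, the replicate block, and without replicate 3 of either genotype. With the replicate block the log2 differences did not move and the adjusted p was 0.140 for Tbx2, 0.0603 for Tbx3 and 0.0700 for Tbx15; no other member's call changed with it. Each number is held by both genotypes, so a block could not move the differences. The SE rose from 0.099 to 0.113 for Tbx2, from 0.101 to 0.113 for Tbx3 and from 0.082 to 0.089 for Tbx15. The labels give no pairing behind the numbers, and why these calls were lost was not tested. Tbx5 changed sign to 0.017 with the mean of all probes, 0.052 without Lasp1-/- replicate 1 and Lasp1+/+ replicate 2 together, and -0.059 to 0.029 with each array left out. Tbx18 did so at 0.027 with array weights, 0.049 with the mean of all probes, and between -0.094 and 0.072 with each array left out. Neither was called in any of these, and Tbx18 and Pitx1 have no value under the filter on dim genes. Genes of the 6 lists, each counted once, gave 7 rises and 12 falls among 108 measured. The counts were 3 rises with normexp correction, 4 rises and 7 falls with the replicate block, 23 falls with array weights, and 4 to 9 rises and 7 to 17 falls with each array left out. Over all genes 419 rose and 780 fell, against 1015 and 1086 after quantile normalization, 223 and 315 with normexp, 993 and 2288 with array weights, 177 and 234 with the replicate block, 207 to 734 and 244 to 1217 with each array left out, and 662 rises without both arrays of highest upper quartile. The cause of these shifts was not tested. Median centring moved the median of all genes by less than 0.1 on the log2 scale. Low signal limits Tbx5, Tbx18 and Pitx1, whose signal lies near the array median.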
